A study of Homo sapiens with 6 samples.

Results

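VGF, secretogranin genes, neurotrophic factor genes and a neurotensin receptor gene were followed in RNA sequencing libraries of CAL62 cells, an established cell line of anaplastic thyroid carcinoma (ATC). The 8 genes were VGF, SCG2, SCG5, BDNF, NGFR, GDNF, ARTN and NTSR1, found by their Ensembl identifiers among 39168 identifiers in the deposited tables. VGF and NTSR1 were selected on the size of their difference in counts between these same groups, so their differences are given as a description without a test. The other 6 were chosen for their roles, with earlier results of these data known. All cells were wild type (WT). In one group they were exposed to 50 nM erianin, a plant-derived compound under study as an anti-tumor agent, and in the other to the solvent DMSO, in both for 48 h. Each group had 3 libraries of 1 cell line, labelled by replicate number. Whether they come from separate cultures is not given in the sample titles, and the spread between them is not that of patients.

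VGF belongs to the granins, acidic proteins stored in the dense-core vesicles of neurons and endocrine cells and cut into peptides on their way out of the cell. The VGF promoter is a textbook target of cAMP-responsive transcription factors. Neurotrophins such as BDNF bind Trk receptor kinases and the shared receptor p75, which NGFR encodes. GDNF and ARTN signal through the kinase RET together with GFRα co-receptors, and NTSR1 is the G protein-coupled receptor of the gut and brain peptide neurotensin.

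The promoters of VGF and NTSR1 are shown because these genes were chosen for differences in opposite directions, and because the VGF start carries a cAMP response element. The RefSeq table (GRCh38.p14) held an entry for 6 of the 8 genes, and each sequence below is the 250 bases before the annotated RNA start. The VGF window is chr7:101165570-101165819 on the minus strand with 66.0% G and C, and the NTSR1 window is chr20:62708586-62708835 on the plus strand with 82.0%, where the median over 35116 starts was 58%. The VGF window reaches 24 bases into the gene as GENCODE 29 draws it, so distances to its RNA start depend on the annotation. Capitals mark the motif matches.
VGF: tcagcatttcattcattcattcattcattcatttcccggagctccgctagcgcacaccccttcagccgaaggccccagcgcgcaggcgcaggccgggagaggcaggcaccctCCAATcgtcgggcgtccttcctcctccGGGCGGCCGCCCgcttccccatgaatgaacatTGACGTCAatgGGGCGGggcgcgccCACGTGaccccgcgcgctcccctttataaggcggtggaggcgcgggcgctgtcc
NTSR1: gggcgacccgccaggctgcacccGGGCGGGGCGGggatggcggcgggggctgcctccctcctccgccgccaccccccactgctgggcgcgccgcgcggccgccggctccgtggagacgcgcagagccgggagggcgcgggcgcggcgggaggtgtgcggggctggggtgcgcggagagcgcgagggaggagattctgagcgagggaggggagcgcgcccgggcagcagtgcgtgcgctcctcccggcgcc
The windows were searched on both strands for the CRE (TGACGTCA), the AP-1 site (TGANTCA), the CCAAT box (CCAAT), the GC box (GGGCGG), the E-box (CACGTG) and an ATF4 composite site (TGATGNAA). In VGF the CRE lay 79 to 72 bases before the start, and 1.65% of the 35116 windows held that motif. A CCAAT box lay at 138 to 134 (in 32% of windows), GC boxes at 111 to 106, 105 to 100 and 68 to 63 (42.6%), and an E-box at 54 to 49 (6.34%). NTSR1 matched only the GC box, at 227 to 222 and 222 to 217, and these matches share 1 base. The AP-1 and ATF4 composite letters, present in 6.57% and 3.14% of windows, were not in these windows. None of the other 4 genes with an entry had the CRE letters at any listed start. These matches are a description of letters and not of occupied sites.

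The libraries held between 25776301 and 34107727 reads on named genes. Levels are given as CPM, read counts divided by the library total and scaled by TMM factors, or as TPM, which also divides by gene length. Over all genes, DMSO replicate 3 lay apart, at a Euclidean distance in log2 CPM of 64.1 and 62.9 from the other DMSO libraries, which were 37.2 from each other, while erianin libraries were 28.2 to 29 from each other. For the 8 genes, calls that change without it are given both ways. PAX8, a thyroid lineage factor, was at 676 ± 55.2 CPM in DMSO and 428 ± 7.88 CPM in erianin (SD, n = 3), and it was called lower (log2 fold change −0.66, adjusted p = 0.00403 by edgeR). TSHR and NKX2-1 were at 0 in every library, and TG and SLC5A5 had at most 13 reads in any library, so of the thyroid markers PAX8 carried nearly all reads. FOXE1, the other thyroid marker that could be tested, was at 1.57 ± 0.633 CPM in DMSO and 1.61 ± 0.105 CPM in erianin. Its log2 fold change was 0.03 (adjusted p = 0.963 by edgeR). In bulk RNA, fewer cells of a type and less RNA per cell cannot be told apart.

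**Figure D1:**
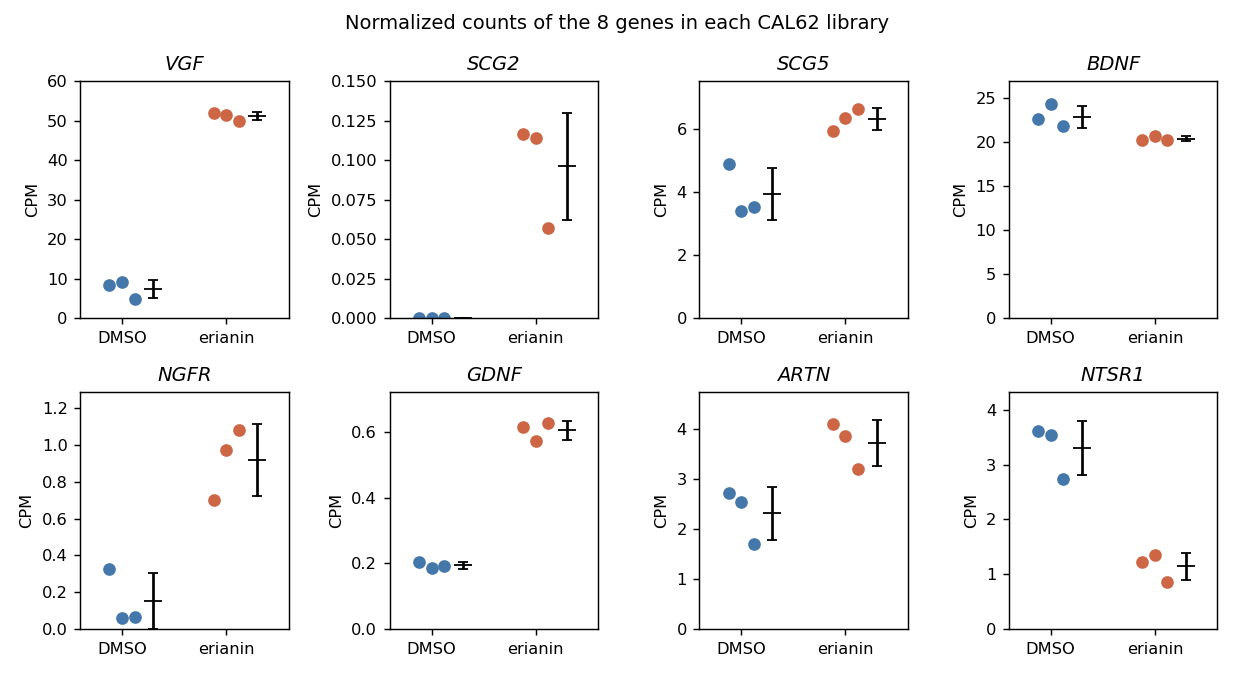
CPM of the 8 genes in each library, with 1 panel per gene, 1 point per library and a black mark with error bars for the mean ± SD of each group of 3. VGF sat at 50.0 to 52.1 CPM in erianin against 4.88 to 9.15 in DMSO, while NTSR1 sat at 0.857 to 1.35 against 2.73 to 3.61.

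VGF was 6.88-fold higher with erianin. It was measured at 8.29, 9.15 and 4.88 CPM in DMSO replicates 1, 2 and 3, and at 52.1, 51.4 and 50.0 CPM in erianin replicates 1, 2 and 3. All erianin libraries lay above all DMSO libraries, and the lowest value was that of DMSO replicate 3. The group means were 7.44 ± 2.26 and 51.2 ± 1.07 CPM (SD, n = 3), and the log2 fold change was 2.78 (SE 0.22). Without DMSO replicate 3 it was 2.54. The counts behind these values were 651 reads in DMSO and 5325 in erianin. In per-length terms, VGF stood at 6.63 ± 2.27 TPM in DMSO, where 56.2% to 68.9% of tested genes were higher, and at 51.7 ± 0.78 TPM in erianin, where 18.9% to 19.7% were. The gene lies at chr7:101162509-101165593 on the minus strand (GRCh38, GENCODE 29) and has 3 annotated transcripts, which the gene counts do not separate.

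SCG5, which encodes the chaperone 7B2 of prohormone convertase 2, was called higher with erianin. Its CPM was 4.89, 3.39 and 3.53 in DMSO and 5.94, 6.35 and 6.62 in erianin. The groups did not overlap, with means of 3.94 ± 0.826 and 6.31 ± 0.342 (SD, n = 3). The log2 fold change was 0.69 (SE 0.17, 95% interval 0.29 to 1.09, adjusted p = 0.036 by edgeR). Of the 12821 genes tested, 8.73% were called in either direction and 5.37% were called higher, where a call needs both an adjusted p below 0.05 and a log2 fold change beyond 0.5 in either direction. CPM values did not overlap between the groups for 38.7% of tested genes. The call was lost without DMSO replicate 2 (adjusted p = 0.108) and without erianin replicate 1, 2 or 3 (0.115, 0.131 and 0.148). SCG5 lies at chr15:32641676-32697098 on the plus strand.

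SCG2, the precursor of secretoneurin, had no read in any DMSO library and 4, 4 and 2 reads in the erianin libraries. These are 0.117, 0.114 and 0.0571 CPM, all near the detection limit. Against a floor of 3 reads over the DMSO group (0.0341 CPM) its pooled erianin level was 2.82-fold higher, a value that leaves out counting error. The gene did not pass the low-count filter and was not tested, and without the filter its adjusted p was 0.134 by edgeR. SCG2 lies at chr2:223596940-223602503 on the minus strand.

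Low counts in these tables were mostly even. Among genes with 1 to 10 reads, 64.7% to 70.0% of counts per library were even, and in each library more genes had exactly 2 reads than exactly 1. Whether both reads of a pair were counted is not given in the sources used here. All counts of SCG2 and of NGFR, described below, were even. With every count halved the bound for SCG2 fell to at least 1.41-fold. The exact 95% counting interval of its ratio had a lower limit of 1.89, and of 0.774 with halved counts, which includes no difference. Counting intervals below are therefore also given with halved counts, and they cover counting error only.

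CHGB, the granin chromogranin B, was called higher, from 20, 28 and 42 reads in DMSO to 102, 88 and 98 in erianin (log2 fold change 1.44, SE 0.24, adjusted p = 0.00972 by edgeR). It was the 1 other granin of 4 that could be tested. PCSK1N, which encodes proSAAS, had 2 reads in DMSO and 8 in erianin in all. CHGA and SCG3, named here after their values were seen, each had 2 reads, both in erianin. The C cell and neuroendocrine marker list, which includes CHGB, summed to 1.48 to 2.01 CPM in DMSO and 5.71 to 7 CPM in erianin. Of its 8 markers 2 could be tested, CHGB and the vesicle protein gene SYP, and both were called higher, beside 5.37% of all genes, SYP from 0.746 ± 0.318 to 3.32 ± 0.606 CPM (log2 fold change 2.18, adjusted p = 0.00602 by edgeR). The defining markers CALCA and NEUROD1 were at 0 in every library. On the neuron list the sum was 64.7 to 65.4 CPM in DMSO and 48.0 to 49.0 in erianin, mostly RBFOX3, which was called lower, while TUBB3 was called higher and STMN2 was at 0. The part of these cell types in the granin values was not tested.

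BDNF was measured at nearly the same level in both groups. Its CPM was 22.6, 24.3 and 21.9 in DMSO and 20.2, 20.7 and 20.3 in erianin. The groups did not overlap in CPM, but the difference did not pass the test (log2 fold change −0.17, SE 0.09, 95% interval −0.38 to 0.04, adjusted p = 0.256 by edgeR). In TPM the ranges overlapped, at 1.74 ± 0.171 in DMSO and 1.77 ± 0.0192 in erianin (SD, n = 3). The sign turned to 0.02 on log2(TPM + 1), a fit whose median log2 fold change over all genes was 0.18. Without DMSO replicate 3 the adjusted p was 0.0247 by edgeR, with a log2 fold change of −0.21 that lay inside the fold threshold. BDNF lies at chr11:27654893-27722058 on the minus strand and has 19 annotated transcripts. BDNF-AS, which shares 701 exon bases with BDNF on the other strand, had no reads.

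NGFR was called higher, at low counts. The DMSO libraries had 8, 2 and 2 reads and the erianin libraries 24, 34 and 38, or 0.328, 0.0616 and 0.0642 CPM against 0.703, 0.973 and 1.08 CPM. The groups did not overlap, and DMSO replicate 1 held most of the DMSO reads. The means were 0.151 ± 0.153 and 0.92 ± 0.197 CPM (SD, n = 3), with a log2 fold change of 2.7 (SE 0.55, 95% interval 1.41 to 3.98, adjusted p = 0.0192 by edgeR). Without DMSO replicate 1 it was 3.79. The call was lost without DMSO replicate 2 (adjusted p = 0.0657) and without erianin replicate 1, 2 or 3 (0.0667, 0.0863 and 0.0911). The pooled counts gave a ratio of 6.76 with an exact 95% counting interval of 3.70 to 13.5, or 2.89 to 19.3 with halved counts. NGFR lies at chr17:49495293-49515017 on the plus strand, and genes that overlap it on the other strand either had no reads (AC006487.1) or were not analysed here (AC015656.1).

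NTF4, a further neurotrophin gene, had 11, 3 and 9 reads against 8, 12 and 17, with a log2 fold change of 0.41 and an adjusted p of 0.671. NTRK2, the receptor of BDNF, had no reads in any library, and NTRK3 had 5, all with erianin, and both are named here after their values were seen. The sortilin gene SORT1 was the most abundant of the receptor list at 38.2 ± 3.52 and 44.2 ± 0.999 CPM, and its log2 fold change of 0.21 had an adjusted p of 0.181. SORCS2 had a log2 fold change of −0.03 with an adjusted p of 0.951.

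GDNF was called higher. It had 5, 6 and 6 reads in DMSO and 21, 20 and 22 in erianin, which are 0.205, 0.185 and 0.193 CPM against 0.615, 0.572 and 0.628 CPM. The groups did not overlap, at 0.194 ± 0.0103 and 0.605 ± 0.0291 CPM (SD, n = 3). At counts this low, such SDs can lie below the counting error and are no measure of how closely the libraries agree. The log2 fold change was 1.63 (SE 0.31, 95% interval 0.90 to 2.35, adjusted p = 0.0158 by edgeR). From pooled counts the ratio was 3.13, with an exact 95% counting interval of 1.81 to 5.71, or 1.47 to 8.24 with halved counts. The call was lost without DMSO replicate 1 or 2 (adjusted p = 0.0527 and 0.0609) and without erianin replicate 1, 2 or 3 (0.0757, 0.0709 and 0.0837). GDNF lies at chr5:37812677-37839686 on the minus strand. The antisense gene GDNF-AS1 shares 526 exon bases with GDNF and had at most 6 reads in a library. NGFR and GDNF passed the low-count filter through their erianin libraries, so passing it already required a difference and their calls are not independent of it.

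ARTN, the ligand artemin, had CPM values of 2.71, 2.53 and 1.70 in DMSO and 4.10, 3.86 and 3.20 in erianin. The groups did not overlap, at 2.31 ± 0.537 and 3.72 ± 0.468 (SD, n = 3). Its log2 fold change was 0.69 (SE 0.21, 95% interval 0.19 to 1.19), as for SCG5, but the adjusted p of 0.0709 by edgeR did not pass. With DESeq2 the adjusted p was 0.0462, with an offset for GC content 0.0171, and without DMSO replicate 3 it was 0.0254, so ARTN was called in those fits, in which 9.37%, 9.13% and 17.5% of all genes were called. ARTN lies at chr1:43933320-43937241 on the plus strand.

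**Figure D2:**
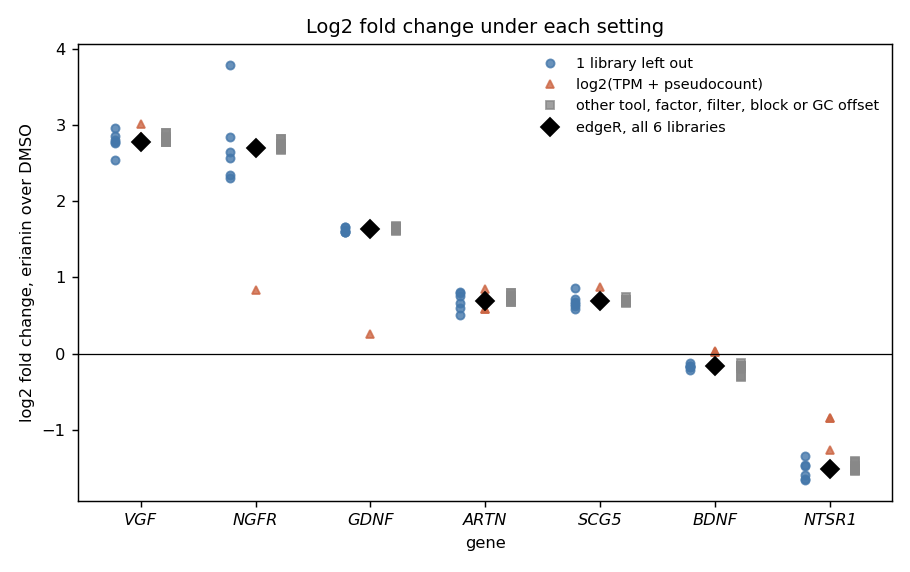
Log2 fold change, erianin over DMSO, on the y axis for 7 of the genes on the x axis (SCG2 is not drawn), with a black diamond for edgeR on all 6 libraries, circles for fits with 1 library left out, triangles for TPM fits and squares for other settings. VGF stayed between 2.54 and 3.01 and NTSR1 between −1.66 and −0.84, while BDNF ran from −0.31 to 0.03 across 0.

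GFRA3, the co-receptor of artemin, was called higher from 1.12 ± 0.126 to 2.22 ± 0.279 CPM (log2 fold change 0.98, SE 0.20, adjusted p = 0.0195 by edgeR). It was called in 11 of 17 alternatives, and the call was lost with the replicate block and without any 1 library other than DMSO replicate 3. RET, named after its values were seen, was at 1.30 ± 0.531 and 1.68 ± 0.328 CPM with an adjusted p of 0.496. SDC3, the most abundant gene of the receptor list and a proteoglycan that binds GDNF, was at 134 ± 0.92 and 95.1 ± 2.33 CPM. Its adjusted p was 0.00486 by edgeR, but its log2 fold change of −0.50 did not exceed the threshold. Among the ligands, GDF15, a distant member of the family and a stress cytokine, was called higher (log2 fold change 1.03, adjusted p = 0.0417 by edgeR). It was called in 10 of 17 alternatives, and the call was lost in the same fits as that of GFRA3 and without the low-count filter. PSPN, which encodes persephin, had a log2 fold change of −0.38 and an adjusted p of 0.242.

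NTSR1 was 2.87-fold lower with erianin. Its CPM was 3.61, 3.54 and 2.73 in DMSO and 1.23, 1.35 and 0.857 in erianin, from 288 and 119 reads. Every erianin library lay below every DMSO library, at means of 1.14 ± 0.255 and 3.30 ± 0.491 CPM (SD, n = 3). The log2 fold change was −1.52 (SE 0.23), and −1.65 without DMSO replicate 3. The ligand gene NTS had 2 reads, both in 1 erianin library, and NTSR2 had none. SORT1, described above as a neurotrophin receptor, is also a neurotensin receptor and was the only other gene of the neurotensin list that could be tested. NTSR1 lies at chr20:62708837-62762771 on the plus strand.

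**Figure D3:**
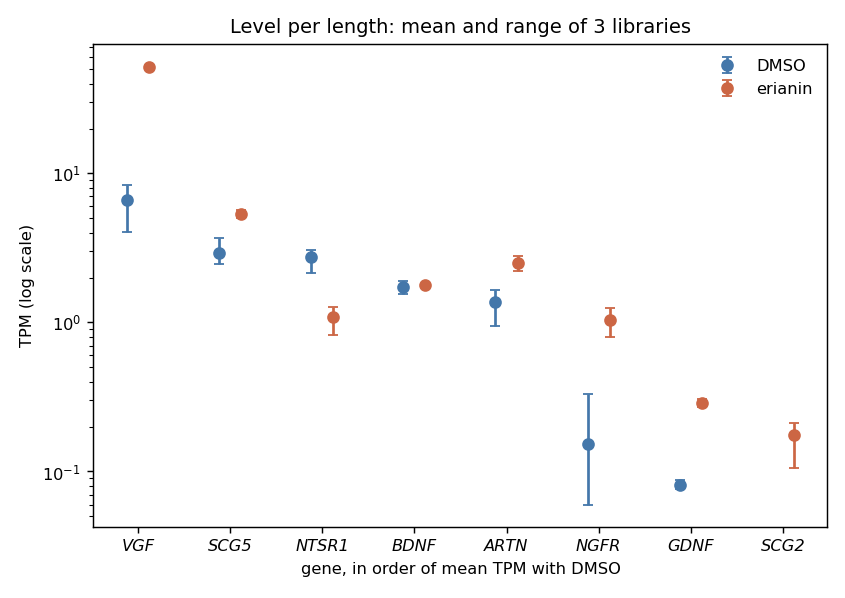
TPM on a log axis of the genes in order of their DMSO mean, with the mean of 3 libraries as a point, their range as a bar and the groups in separate colours. SCG2 with DMSO, listed at 0, is not drawn. With erianin VGF stood at 51.7 TPM, above SCG5 at 5.35, and NTSR1 at 1.09 overlapped NGFR at 1.04.

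In TPM, the order in DMSO was VGF, SCG5 (2.92), NTSR1 (2.75), BDNF (1.74), ARTN (1.38), NGFR (0.152), GDNF (0.0811) and SCG2, listed at 0. The ranges of SCG5 and NTSR1, of BDNF and ARTN, and of NGFR and GDNF overlapped, so those neighbours were not separated. With erianin the order was VGF, SCG5 (5.35), ARTN (2.52), BDNF (1.77), NTSR1 (1.09), NGFR (1.04), GDNF (0.29) and SCG2 (0.175), and only NTSR1 and NGFR overlapped. ARTN thus stood above BDNF and NTSR1 in erianin, where NTSR1 had stood above both in DMSO. The deposited TPM columns sum to 59.1% of their nominal total in DMSO replicate 3 and to 72.6% to 78.3% of it in the others, which moves every TPM value of that library.

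Around the 8 genes, 11 pathway lists, also chosen with earlier results of these data known, held 91 further genes. Of those, 64 could be tested. Among the 64, 6 were called higher (GDF15, GFRA3, CHGB, SYT7 and CNTF among them) and 3 lower (SHC3, PCSK6 and CLCF1). That is beside 5.37% higher and 3.36% lower over all genes tested. The median log2 fold change of the 64 was 0.09, against 0.00 over all tested genes, and 37 were fitted higher and 27 lower. Without DMSO replicate 3, 12 of 66 tested genes were called higher and 5 lower, beside 11.4% and 6.11% of all genes. Calls of single lists in that fit are not given below. With any 1 erianin library left out none of the 64 to 65 tested genes was called higher, where 24 to 27 had an unadjusted p under 0.05 by edgeR, while PCSK6 was called lower in each of those fits.

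**Figure D4:**
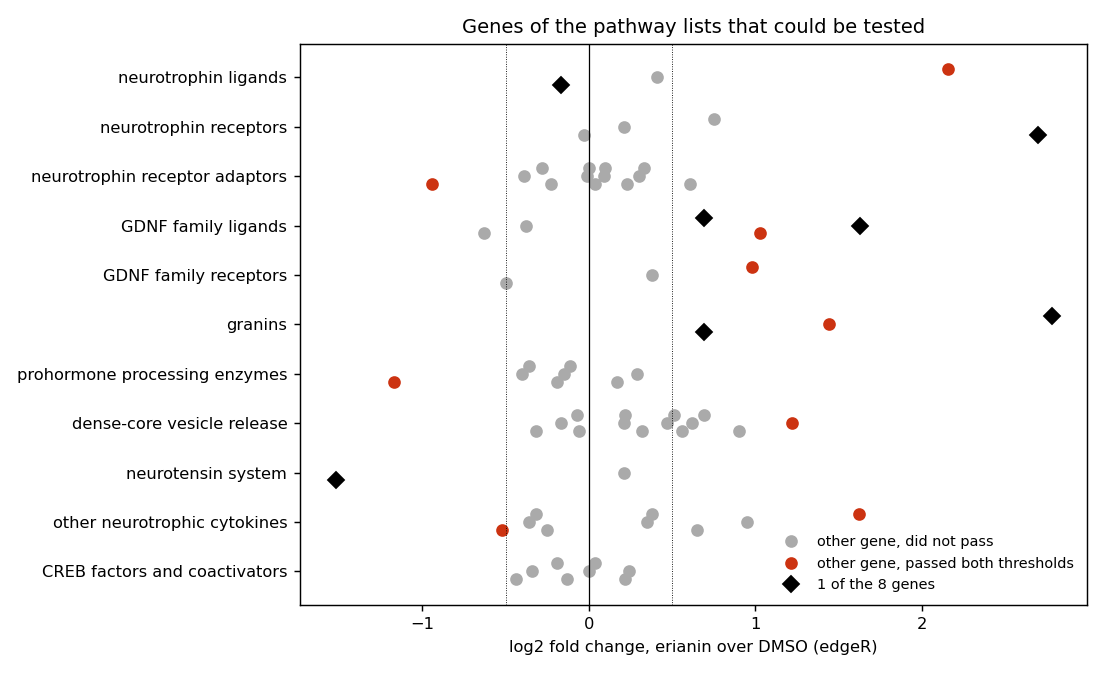
Log2 fold change, erianin minus DMSO, of the tested genes of each pathway list, with 1 point per gene, red for called genes, grey for others, black diamonds for the 8 genes, and dotted lines at 0.5 and −0.5. CNTF and CHGB lie at 1.62 and 1.44, and PCSK6 at −1.17.

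Adaptors that couple neurotrophin receptors to their pathways had 13 tested genes and a median of 0.04. SHC3, a neuronal Shc adaptor, was called lower from 3.76 ± 0.507 to 1.95 ± 0.419 CPM (log2 fold change −0.94, adjusted p = 0.025 by edgeR). It was called in 9 of 17 alternatives, and the call was lost in the 3 TPM fits, with the replicate block, without DMSO replicate 1 and without each erianin replicate. The abundant members SHC1 and MAGED1 had log2 fold changes of −0.39 and −0.28 with adjusted p-values of 0.015 and 0.0474, under the fold threshold.

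Prohormone processing enzymes had 8 tested genes, with a median of −0.17. PCSK6, a convertase of the constitutive secretory route, was called lower from 4.98 ± 0.164 to 2.22 ± 0.321 CPM (log2 fold change −1.17, SE 0.16, adjusted p = 0.00567 by edgeR). FURIN, the most abundant convertase, was at 625 ± 68.6 and 473 ± 13.2 CPM. Its log2 fold change of −0.40 was under the fold threshold, with an adjusted p of 0.0287 by edgeR. PAM, which amidates peptides, had a log2 fold change of −0.11 with an adjusted p of 0.308. The convertases of dense-core vesicles, PCSK1 and PCSK2, named after their values were seen, had 1 read each, both in DMSO. PCSK5, named likewise, had no DMSO read and 8, 10 and 6 reads in erianin, and did not pass the filter.

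Dense-core vesicle release genes had 14 tested members and a median of 0.40. SYT7, a calcium sensor of vesicle fusion, was called higher from 1.18 ± 0.243 to 2.74 ± 0.311 CPM (log2 fold change 1.22, SE 0.22, adjusted p = 0.0129 by edgeR). The abundant UNC13B and STX1A had log2 fold changes of −0.07 and −0.17 with adjusted p-values of 0.662 and 0.257. With DESeq2, 3 genes of this list were called higher, beside 5.75% of all genes.

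Among other neurotrophic cytokines, CNTF was called higher from 10, 10 and 7 reads to 33, 34 and 33 (log2 fold change 1.62, adjusted p = 0.0139 by edgeR). Like NGFR and GDNF, it passed the low-count filter through its erianin libraries, and it was called in 11 of the 16 alternatives that tested it. CLCF1, which encodes another ligand of the CNTF receptor, was called lower from 53.7 ± 1.55 to 37.5 ± 1.12 CPM (log2 fold change −0.52, adjusted p = 0.00747 by edgeR). It was called in 7 of 17 alternatives. The call was lost with upper-quartile factors, in the 3 TPM fits, with the GC offset (log2 fold change −0.43) alone or with the replicate block, without DMSO replicate 1 and without each erianin replicate. LIF, the most abundant of the list at 983 ± 104 and 767 ± 15.1 CPM, had a log2 fold change of −0.36 and an adjusted p of 0.0386. MDK, the growth factor midkine, was at −0.25 with an adjusted p of 0.0803.

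CREB factors and coactivators act on CRE sites such as that of VGF. Their 8 tested genes had a median of −0.06, and none was called by edgeR or DESeq2, although 3 had an unadjusted p under 0.05. CRTC2 had a log2 fold change of 0.00, at 96.3 ± 7.87 and 96.6 ± 3.80 CPM. CRTC3 was at −0.34 with an adjusted p of 0.0308, under the fold threshold. These are transcript levels, and the activity of CREB was not measured here.

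The direction of change over all genes moved with their level. With erianin, 75.3% of the genes with a mean of 0.1 to 0.3 CPM were higher, 70.1% of those from 0.3 to 1 CPM, where NGFR and GDNF lie, and 33.3% of those above 100 CPM. In the range from 0.02 to 0.1 CPM that holds SCG2 the share was 65.8%, and from 10 to 30 CPM, where VGF and BDNF lie, it was 51.4%. From 1 to 3 CPM, the range of NTSR1, 64.3% were higher, while NTSR1 was lower. Without DMSO replicate 3 the shares ran from 75.2% down to 29.7%. The part of this trend in the values of the scarce genes NGFR, GDNF, SCG2 and CNTF was not tested.

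**Figure D5:**
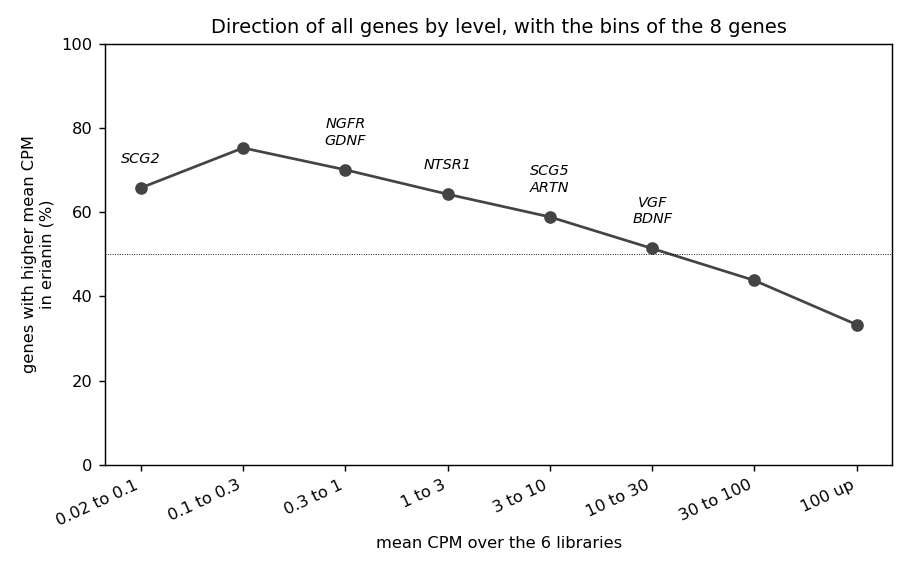
Share of genes with a higher mean in erianin than in DMSO, in percent, by range of mean CPM over the 6 libraries, with the names of the 8 genes at their ranges and a dotted line at equal shares. The share falls from 75.3% at 0.1 to 0.3 CPM to 33.3% above 100 CPM.

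The genes whose profiles lay nearest to VGF, by the root mean square difference of log2 CPM centred on each gene's mean over 6 libraries, were DEFB4A, DKK1, GPC1, MMP10 and NEURL3, at 0.202 to 0.374 among 11554 genes compared. DKK1 had means of 0.428 and 2.58 CPM and MMP10 of 0.234 and 1.98 CPM, in DMSO and erianin, so these genes stood far below VGF in CPM. DEFB4A has a near-identical copy and its reads may be shared with it. Nearest to NTSR1 were AHNAK2, LOXL1, BLK, CACNG6 and LTBP2, at 0.227 to 0.260. AHNAK2 was at 556 CPM in DMSO and 251 CPM in erianin, and LOXL1, a collagen and elastin cross-linking enzyme, at 114 and 46.9 CPM. All libraries enter each profile, so these lists reflect the group difference together with the library spread.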

How the data were processed

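RNA was sequenced from CAL62 cells with 50 nM erianin or DMSO (48 h, 3 libraries each). The authors deposited unnormalized read counts of each gene and TPM values of the same libraries. The submitters' processing notes name fastp 0.23.2, STAR 2.7.10, featureCounts 2.0.1 and StringTie 2.2.1, and GRCh38. The annotation and the strand setting are not given in the sources used here, so overlapping genes may share reads. Of 65807 rows, 26480 without an identifier (0.00385% to 0.00515% of the counts) were left out. Of the identifiers, 159 stand on more than 1 row, and the row with most counts was used.

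Counts were tested with edgeR 4.0.16 in R 4.3.3 (TMM, filterByExpr, glmQLFit and glmQLFTest, two-sided, Benjamini-Hochberg over 12821 genes). The study's methods name DESeq2, which was an alternative (1.42.0), as were limma 3.58.1 on log2(TPM + 1) or log2(TPM + 0.1), other scalings and filters, a GC offset, a replicate block and each library left out. The steps were tested on simulated counts: edgeR recovered 200 of 200 changed genes over 12732, with 5 false calls. The changed genes had more reads than NGFR, GDNF and CNTF and larger changes than SCG5. The simulated spread was smaller than that of the data, with no library set apart. Recovery of scarce genes or small changes was thus not examined. Coordinates came from GENCODE 29 on GRCh38, and promoters from RefSeq.

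The genes and lists were chosen with earlier results of these data known. Named were the 8 genes, each called pathway gene, the 2 most abundant others of each list, and the 5 nearest profiles of VGF and NTSR1 with a mean of at least 1 CPM. Some genes that this rule or the lists select are not reported here. Even counts, halved counts and direction by level were examined after seeing the data. Epithelial markers summed to 2310 to 3130 CPM in DMSO and 2520 to 2690 in erianin, mesenchymal to 6490 to 8430 and 4100 to 4640 (FN1 called lower), Schwann to 27.5 to 29.2 and 21.7 to 24.5, leukocyte to 1.96 to 3.28 and 3.18 to 4.48, and endothelial to 0.431 to 0.674 and 1.14 to 1.49. The p-values rest on the spread between these libraries.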

Additional observations from a re-analysis of the deposited data

How the results depend on the processing

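Of the 6 genes chosen for their roles, 5 could be tested and 3 were called (SCG5, NGFR and GDNF), beside 8.73% of all genes. They were chosen with earlier results of these data known, so this number is not a test of the genes as a group. NGFR and GDNF passed the low-count filter through their erianin libraries, so their calls are not independent of it. The number was 1 with at least 10 counts in every library, where NGFR and GDNF could not be tested, and 1 on log2(TPM + 0.1). With each library left out it ran from 0 to 4. It was 0 without DMSO replicate 2 or any erianin replicate, where 4, 3, 4 and 4 of 5 tested genes had an unadjusted p under 0.05 by edgeR, and 4 without DMSO replicate 3. Of all genes, 2.39% to 2.53% were called without 1 erianin library, 5.67% without DMSO replicate 2 and 17.5% without DMSO replicate 3. The pathway genes called higher numbered 6 in the main test, 10 with DESeq2, 10 on log2(TPM + 1), 12 on log2(TPM + 0.1), 10 on TPM without a filter, and 0 to 12 with each library left out. Of all genes, 5.37%, 5.75%, 9.41%, 10.3% and 5.86% were called higher in the first 5 of these fits, and 1.33% to 11.4% with each library left out. Those called lower numbered 3, then 0 in each of the 3 TPM fits, where 0.805%, 0.943% and 0.487% of all genes were called lower, and 1 to 5 with each library left out. The TPM fits moved the median log2 fold change of all genes to 0.18, 0.20 and 0.12, and they turned BDNF to 0.02, 0.03 and 0.02. The TPM fits used the columns without rescaling. In DMSO replicates 1, 2 and 3 these sum to 73.5%, 72.6% and 59.1% of their nominal total. In erianin replicates 1, 2 and 3 they sum to 77.2%, 75.1% and 78.3%. The part of these sums in the TPM results was not tested. Nor was the cause of the other differences between fits, except that fewer libraries or genes entered some of them.

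The replicate block left 0 of the 6 genes called, beside 5.19% of all genes, and 2 of 64 tested pathway genes higher, beside 3%. With it the adjusted p by edgeR was 0.0832 for SCG5, 0.0622 for NGFR and 0.0698 for GDNF, and 4 had an unadjusted p under 0.05. Libraries with the same number did not deviate together (correlations 0.00138, 0.0253 and −0.0329). With few libraries and DMSO replicate 3 apart from its group, these correlations cannot exclude that the numbers pair the libraries. Log2 fold changes of VGF and NTSR1, whose direction the choice of genes fixed, ran from 2.54 to 3.01 and from −1.66 to −0.84. On log2(TPM + 1), with and without the filter, NTSR1 was at −0.84. Log2 fold changes ran from 0.59 to 0.87 for SCG5, 0.83 to 3.79 for NGFR, 0.25 to 1.68 for GDNF and 0.51 to 0.85 for ARTN. Counts of under 10 reads per DMSO library limit SCG2, NGFR and GDNF.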
